A study of Caenorhabditis elegans with 4 samples.

Results

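The left arm of chromosome III held 1350 of the 13662 LIN-61 peaks in the combined list of this series (9.88%), on 4.58% of the nuclear genome. The arm was taken as the left 33.3% of the chromosome, and a peak belonged to it when its centre, the mean of its first and last base, lay between base 1 and base 4594567 of III on genome build WS220. Arms and centres of the other chromosomes were cut in the same way. The same rule placed 1258 of 11742 nuclear peaks of ChIP replicate 1 there (10.7%) and 1132 of 9436 of ChIP replicate 2 (12%). The series used ChIP-seq, the sequencing of DNA that an antibody pulls down with its protein, to map LIN-61 in wild-type Caenorhabditis elegans. The worms were of strain N2, a mixed population of males and hermaphrodites grown at 20 degrees Celsius and frozen whole as L3 larvae. The series has 2 ChIP libraries, made with the affinity-purified rabbit polyclonal antibody SDQ3520 to LIN-61, and 2 input DNA libraries of the same strain and stage. Whole larvae were used, so a peak may come from any tissue. Whether the replicates were separate cultures is not in the labels, and their spread may be technical. Read counts are not listed, so the depth behind the peaks is unknown.

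LIN-61 is built of MBT repeats, a fold that binds methylated lysines. It recognises histone H3 methylated at lysine 9, the mark of heterochromatin, and belongs to the group of chromatin regulators whose combined loss gives worms several vulvae. In C. elegans the arms of the autosomes are rich in repeats and in this mark, recombine more often than the centres and lie near the nuclear envelope, while broadly expressed genes are more frequent in the centres. The arms and centres used here were cut by chromosome length, on X as on the autosomes, and were not matched to these features.

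LIN-61 peaks on the left arm of III were dense, wide and high in score. In the combined list the arm had 294 peaks per Mb, which covered 21.9% of its sequence, against 136 peaks per Mb and 8.21% over all 6 nuclear chromosomes. The median peak was 401 bp wide on the left arm of III and 332 bp wide over all combined peaks. Each peak carries a score from the authors' peak caller, whose underlying quantity the files do not name. The median score was 12.75 on the left arm of III and 8.58 over the whole list. Each replicate list had the same order, with medians of 398 bp and 12.98 on the left arm of III against 321 bp and 7.89 genome-wide in replicate 1, and of 351 bp and 11.45 against 302 bp and 7.68 in replicate 2.

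High scores were spread over many peaks of the arm. Of its 1350 combined peaks, 317 (23.5%, 95% Wilson interval 21.3 to 25.8) were in the top 10% of the whole combined list by score, a part that held 10.1% of all peaks, ties included. The top 10% of each replicate's own list included 302 of its 1258 replicate 1 peaks (24.0%) and 241 of its 1132 replicate 2 peaks (21.3%). Weak peaks were present as well: 225 combined peaks of the arm (16.7%) were in the bottom 25% of the whole list by score, which held 23.4% of all peaks. These intervals cover counting error and treat peaks as independent, which neighbours need not be.

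Among the 18 arms and centres of the 6 chromosomes, the left arm of III ranked first in each of the 3 lists for peaks per Mb, covered sequence, median width and median score. The lead in peak number was small in the combined list, where the left arm of I, the next in order, had 289 peaks per Mb. It was wider in the replicates, with 274 peaks per Mb on the left arm of III against 244 on the left arm of I in replicate 1, and 246 against 192 in replicate 2. In covered sequence the left arm of III led with 21.9% against 17.2% on the left arm of I and 16.5% on the left arm of IV in the combined list. In replicates 1 and 2 the left arm of IV came next, with 13.7% and 9.74% against 19.5% and 13.6%. The replicate values of these 2 arms overlapped, as 13.61% on III in replicate 2 was below 13.72% on IV in replicate 1. The next highest median score belonged to the left arm of II, which reached 11.54 in the combined list, and 12.02 and 9.59 in replicates 1 and 2.

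Of the 4 other chromosome parts compared in detail, the middle of III differed most in density. The 2 replicates had 274 and 246 peaks per Mb on the left arm of III (mean 260.1 ± 19.4, SD, n = 2), against 74.4 and 56.6 on its centre (mean 65.5 ± 12.6, SD, n = 2). The ratio was 3.68 in replicate 1, 4.35 in replicate 2 and 3.14 in the combined list. The replicate values of the left arm and the centre did not overlap. An exact two-sided permutation test over the replicates gave p = 0.333, the smallest value that 2 against 2 allows. That test treats the parts as separate samples, although both were measured in the same 2 libraries. With the parts paired by library, the mean ratio was 4.02 ± 0.48 (SD, n = 2; exact paired permutation test, p = 0.5, the smallest that 2 pairs allow), so neither exact test can reach 0.05 here.

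The right arm of III, the other arm of the chromosome, was closer. Peaks per Mb were 274 and 246 on the left arm in the replicates, against 209 and 175 on the right arm, with ratios of 1.31 and 1.41 within the libraries (mean 1.36 ± 0.07, SD, n = 2; 1.19 in the combined list; exact two-sided permutation test over the replicates, p = 0.333). Covered sequence was 19.5% and 13.6% on the left arm against 12.9% and 8.28% on the right arm, where the lower left-arm value still exceeded the higher right-arm one. The median score was 12.98 and 11.45 on the left arm against 8.09 and 7.17 on the right arm. The lead in peak number depended on what was counted: with peaks at most 1 kb apart merged, the ratio of the left to the right arm turned to 0.97 in the combined list, while for covered length it was 1.39. In that list the left arm thus held slightly fewer separate clusters than the right arm, and more peaks and covered sequence in them.

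**Figure D1:**
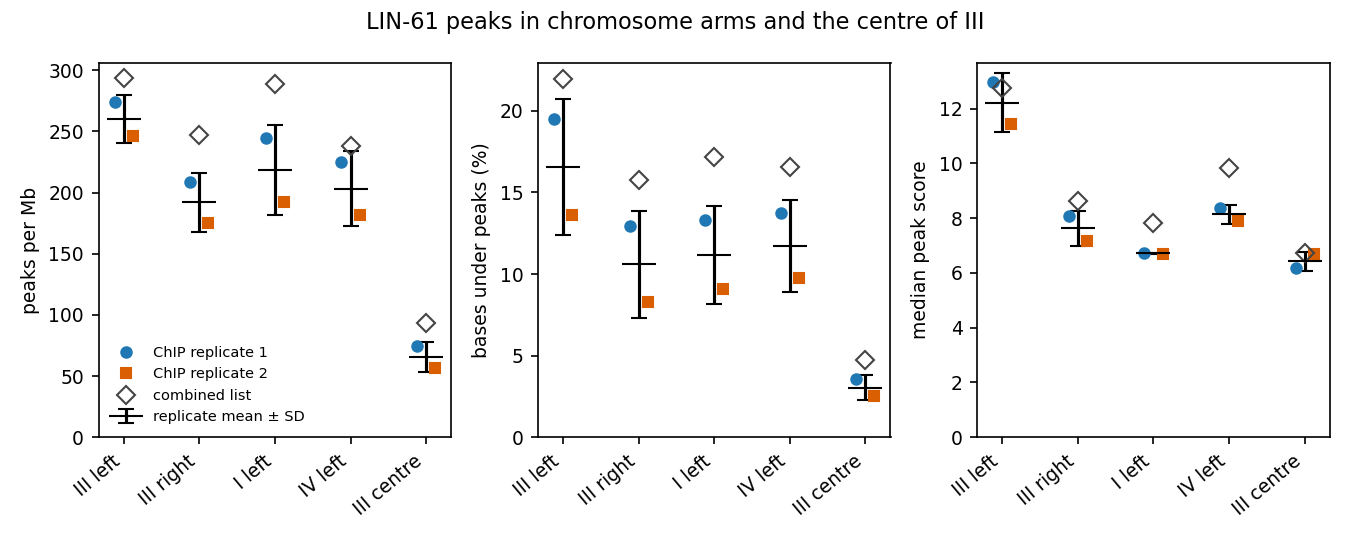
Peaks per Mb, percent of bases under peaks and median peak score (authors' score) in the left arm of chromosome III and 4 other chromosome parts; circles and squares are ChIP replicates 1 and 2, horizontal bars and whiskers their mean ± SD (n = 2), and open diamonds the combined list. The left arm of III is highest in all 3 panels, with replicate densities of 274 and 246 peaks per Mb, and the centre of III is lowest in density and cover.

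The arm was not uniform along its length. When it was divided into bins of 500 kb, the leftmost bin had 282 peaks per Mb in the combined list, and the next had 138. From 1000001 to 3500000 the bins held between 342 and 452 peaks per Mb. The bin from 3500001 to 4000000 fell back to 170 and the bin from 4000001 to 4500000 to 122, and the bin from 4500001 to 5000000, most of which lies in the centre, had 78. The fall in density after 3500000 was therefore inside the left arm as cut here by chromosome length, more than 1 Mb before that cut. Both replicates had the fall, with 404 peaks per Mb before and 150 after in replicate 1, and 332 and 120 in replicate 2. Where the fall lies relative to the border of the repeat-rich, more often recombining arm was not tested.

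The stretch from 1000001 to 3500000, chosen after these bins were seen, is 54.4% of the arm and held 72.4% of its combined peaks, 73.8% of its replicate 1 peaks and 76.1% of its replicate 2 peaks. Peaks covered 31.4% of this stretch in the combined list, and 28.5% and 19.8% in replicates 1 and 2. In the last 1.09 Mb of the arm they covered 6.93%, 5.30% and 3.73%. The median score in the stretch was 14.29 in the combined list, and 15.50 and 13.82 in replicates 1 and 2, against 9.27, 6.92 and 6.19 in the last 1.09 Mb. Of the 102 combined peaks of the arm that were 2 kb or wider, 87 lay in the dense stretch, 14 in the leftmost 500 kb, 1 in the last 1.09 Mb and none between 500001 and 1000000.

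At a finer scale, peak-rich and peak-poor windows alternated. The 46 windows of 100 kb, the last of them shorter, ranged from 0.826% to 78.8% covered in the combined list, with a median of 17.3%. The 10 richest windows held 48.7% of all covered bases of the arm in the combined list, and 49.7% and 52.7% in replicates 1 and 2, and they were the same 10 windows in both replicates. The richest 5 in the combined list began at 1500001 (78.8% covered), 1800001 (59.1%), 2100001 (54.3%), 3000001 (46.7%) and 1000001 (46.3%). By covered length these windows took ranks 1 to 5 in replicate 1 and ranks 1 to 6 in replicate 2.

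The poorest 5 windows began at 1300001 (0.826%), 700001 (1.72%), 4300001 (1.99%), 100001 (3.48%) and 3500001 (4.66%). In the replicates their ranks lay from 41 to 46 among the 46 windows. The window at 1300001 lies inside the dense stretch: it had 3 combined peaks, while the window before it was 24.6% covered and the window after it 38.9% covered. The window at 100001 likewise stood between windows with 30.0% and 44.6%.

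**Figure D2:**
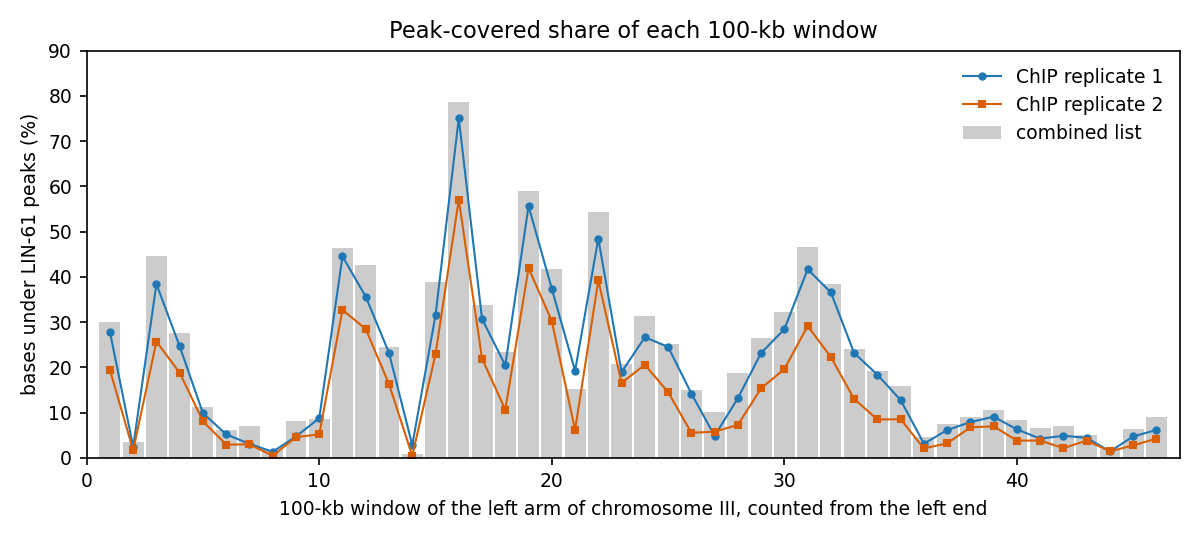
Percent of bases under LIN-61 peaks in each 100-kb window of the left arm of chromosome III, in order from the left end (window 46 is shorter); bars are the combined list, blue circles ChIP replicate 1 and orange squares ChIP replicate 2. The profiles rise and fall together, with the maximum in window 16 (78.8%, 75.1% and 57.1%) and a fall after window 35.

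The replicates gave this profile the same shape at different heights. Over the 46 windows, the covered share of replicate 2 tracked that of replicate 1 with a rank correlation (Spearman's rho) of 0.97 and a Pearson's r of 0.98, given as a description, since the windows share 2 libraries and their neighbours. Replicate 2 covered less than replicate 1 in 44 of 46 windows, with a median ratio of 0.69. The windows with the lowest ratios began at 1300001 (0.16), 2000001 (0.32) and 700001 (0.36). In the window at 2000001, peaks covered 19.2% in replicate 1, 6.16% in replicate 2 and 15.2% in the combined list, so that the combined list held less than replicate 1 alone. The ratio was above 1 in the windows at 4300001 (1.02) and 2600001 (1.19).

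Stretches without peaks were also shared. The longest in the combined list ran over 83630 bp from 1320923 to 1404552, and neither replicate had a peak in it. The stretches from 4019191 to 4086605 (67415 bp) and from 2219313 to 2271206 (51894 bp) were empty in all 3 lists too. The stretch from 913136 to 982075 (68940 bp) held 3 replicate 1 peaks of 357 bp in all, and that from 122365 to 183877 (61513 bp) was touched by 1 replicate 1 peak over 5 bp. Between these stretches peaks lay close together: the median distance from one peak to the next was 605 bp in the combined list, and 600 bp and 712 bp in replicates 1 and 2. On the centre of III it was 1833, 2321 and 4013 bp, and on the right arm 920, 1037 and 1407 bp.

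Peaks of the left arm of III gathered in tracts, defined as runs of peaks with at most 1 kb between neighbours. The 1350 combined peaks formed 527 tracts, of which 261 were single peaks. Tracts of 5 or more peaks numbered 72 and held 589 peaks, or 43.6% of the arm's peaks, against 27.6% over the whole combined list. The share was 44.2% in replicate 1 (29.6% genome-wide) and 41.4% in replicate 2 (24.2% genome-wide). At a fixed gap, denser peaks form larger tracts by construction, and the part of density in these shares was not tested. Of the 124 tracts of the genome that were 10 kb or longer in the combined list, 25 were on the left arm of III, as were 23 of 97 in replicate 1 and 9 of 38 in replicate 2. Peaks in the larger tracts had a median score of 16.11, against 9.0 for single peaks, and a median width of 480 bp against 320 bp.

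The longest tract spanned 42264 bp, from 1499867 to 1542130, with 18 combined peaks over 90.2% of its length. Replicate 1 covered 85.7% of it with 21 peaks and replicate 2 covered 71.5% with 32 peaks. It broke into 2 tracts in replicate 1 and 3 in replicate 2. The next in length spanned 32382 bp from 1918156 to 1950537 and held 23 peaks in the combined list, and 21 and 23 in replicates 1 and 2. Another, from 264433 to 287291 (22859 bp, 14 combined peaks), lay in the leftmost 500 kb, where replicate 1 covered 77.2% and replicate 2 49.8% of it. The other 2 of the longest 5 ran from 2194511 to 2216826 (22316 bp) and from 1558858 to 1580762 (21905 bp).

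**Figure D3:**
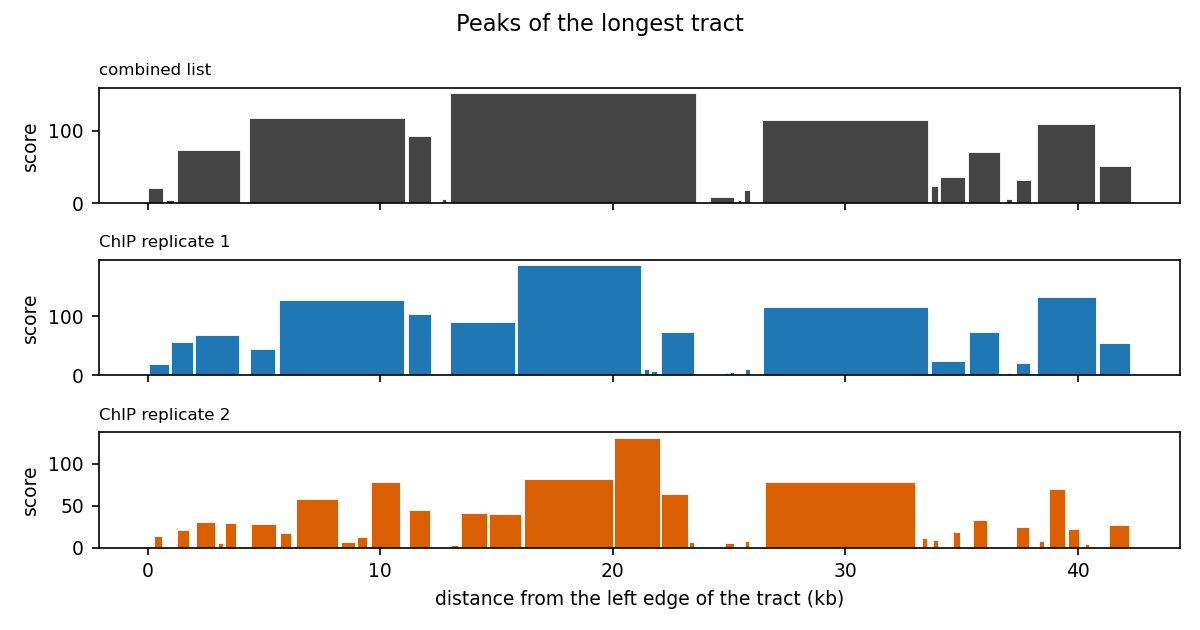
Peaks of the longest tract of the left arm of chromosome III in the combined list and both ChIP replicates; the horizontal axis is the distance in kb from the left edge of the tract, each bar spans 1 peak and its height is the authors' score, with a separate vertical scale per list. The 18 combined peaks correspond to 21 peaks in replicate 1 and 32 in replicate 2. The broad block at about 26 to 33 kb is a single peak in the combined list and in replicate 1. In replicate 2 it is a 6448 bp peak and a 220 bp peak.

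More of the combined peaks here overlapped peaks of both replicates than in the list as a whole. The combined list was taken as made from the same 2 ChIP libraries, so this overlap, called backing here, is not independent support. Of the 1350 peaks, 751 (55.6%, 95% Wilson interval 53.0 to 58.3) were met by peaks of both replicates over at least 1 bp, where the share over all combined peaks was 45.3%. Another 327 (24.2%) overlapped replicate 1 alone and 74 (5.48%) replicate 2 alone, against 26.5% and 7.86% of all combined peaks. The remaining 198 (14.7%, 12.9 to 16.7) overlapped neither replicate, against 20.3% of all combined peaks. The share with both was 45.5% on the right arm of III, 44.3% on the left arm of I, 50.8% on the left arm of IV and 37.4% on the centre of III. These differences in share were not tested. Peaks of the left arm of III were also wider and higher in score, as given above, and the part of width and score in these shares was not tested.

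The peaks backed by both replicates made up 83.6% of all bases under combined peaks of the arm, counted over their whole width. Parts of them lay under no replicate 2 peak: they covered 18.3% of the arm, while all replicate 2 peaks covered 13.6%. The peaks backed by both had a median width of 717 bp and a median score of 33.33. Peaks backed by replicate 1 alone had medians of 244 bp and 6.71, and those backed by replicate 2 alone 288.5 bp and 6.73. Peaks with neither replicate were narrow and weak, with medians of 187.5 bp and 3.77 and a highest score of 10.68, and they made up 4.09% of the bases. Of those 198 peaks, 122 lay within 1 kb of a replicate peak, and the median distance of the 198 to one was 580.5 bp. Peaks of this arm lie close together in any case: 61.0% of gaps between neighbouring combined peaks were at most 1 kb. The part of density in this closeness was not tested.

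Seen from the replicates, 829 of the 1258 replicate 1 peaks (65.9%, 95% Wilson interval 63.2 to 68.5) overlapped a replicate 2 peak, against 59.1% genome-wide. Of the 1132 replicate 2 peaks, 1031 (91.1%, 89.3 to 92.6) overlapped a replicate 1 peak, against 85.0% genome-wide. Nearly all met a combined peak: 1182 replicate 1 peaks (94.0%) against 92.6% genome-wide, and 1125 replicate 2 peaks (99.4%) against 98.3% genome-wide. That overlap is not independent, as the combined list was taken as made from the same libraries. In the 500-kb bins of the dense stretch, 86.8% to 97.0% of replicate 2 peaks had a partner in replicate 1, and in the 4 other full bins of the arm 73.3% to 88.3%. Peak density differed between these bins, and its part in the shares was not tested.

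Narrow and wide combined peaks differed in how they appeared in the replicates. The 505 peaks under 300 bp were 37.4% of the arm's peaks and 10.6% of its peak bases; 13.5% of them had both replicates and 36.0% neither, against 12.7% and 40.0% of all combined peaks of that width. The 582 peaks of 300 bp to under 1 kb had both in 72.9%, against 64.2% in the whole list, and the 161 peaks of 1 to under 2 kb in 97.5%, against 94.5%. All 102 peaks of 2 kb or more overlapped both replicates, as did 98.4% of such peaks in the whole list. The gap in the share with both was thus widest in the class of 300 bp to under 1 kb. In that class 2.58% of the arm's peaks had neither replicate, against 5.55% in the whole list. The peaks of 2 kb or more were 7.56% of the arm's peaks, against 4.57% of the whole combined list, and 35.6% of the arm's peak bases. Many broke up: 51 of the 102 corresponded to 2 or more peaks in replicate 1 and 88 in replicate 2. In replicate 2, 27 peaks of the arm reached 2 kb, against 91 in replicate 1. Such peaks were 2.39% of the arm's peaks against 2.26% genome-wide in replicate 2, and 7.23% against 3.88% in replicate 1. The excess of wide peaks on the arm was thus small in replicate 2. The shares in several pieces were 50.0% on the arm against 53.9% in the whole list for replicate 1, and 86.3% against 75.2% for replicate 2. The wide blocks of the combined list thus rarely overlapped only 1 peak of replicate 2, although its peaks still covered 77.8% of their bases (replicate 1: 94.4%).

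**Figure D4:**
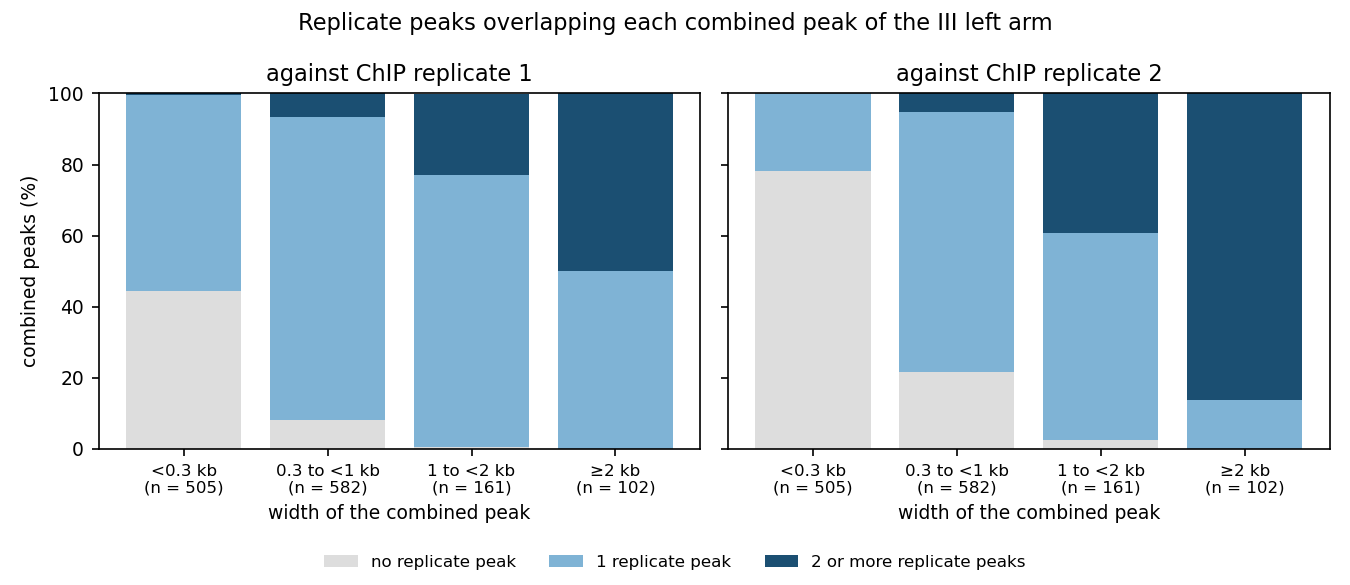
Share of the combined peaks of the left arm of chromosome III that overlap no peak, 1 peak or 2 or more peaks of ChIP replicate 1 (left panel) and ChIP replicate 2 (right panel), by width of the combined peak; n is the number of combined peaks in a class. Among peaks of 2 kb or more, 51 of 102 are in several pieces in replicate 1 and 88 of 102 in replicate 2, and among peaks under 300 bp 224 and 395 of 505 have no counterpart.

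Where a site was a single peak in all lists, its place was nearly the same. For 484 combined peaks that matched exactly 1 peak in each replicate, with no other partner, the centres of the replicate peaks were a median of 35 bp apart, and 83.9% were within 100 bp. These sites were picked by overlap, which by itself keeps the centres of narrow peaks close. The rest of the 1350 combined peaks are left out here. The replicate 2 peak was the narrower in 390 of the 484, with a median width ratio of 0.80. Median widths were 548.5 bp in the combined list, and 483.5 bp and 333 bp in replicates 1 and 2. Their scores ranked the sites alike, with Spearman's rho of 0.82 between the replicates, a description over peaks that share their libraries.

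The strongest sites lay mostly in the dense stretch. Among combined peaks backed by both replicates, the 20 highest scores were taken, and 18 of these sites lay between 1000001 and 3500000. That stretch held 72.4% of all combined peaks of the arm. Of the 20 sites, 14 lay between 1500001 and 2200000, bounds not set in advance. Of the arm's 1350 combined peaks, 226 lay in the bin from 1500001 to 2000000, and 31 and 33 in the windows at 2000001 and 2100001. Scores of the 20 sites ran from 123.47 to 157.99 and their widths from 434 to 10561 bp, with a median of 3504.5 bp. In replicate 1 the best peak over 18 of these 20 sites was among the 20 best of the arm, and in replicate 2 it was so for 14 of 20. The lowest rank of any site was 38 in each replicate.

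A cluster of strong sites lay between 1607149 and 1629307. Its highest peak, at 1615117 to 1617482, had a score of 157.99 in the combined list, and its best replicate peaks scored 228.88 in replicate 1 and 164.94 in replicate 2, the top of the arm in all 3 lists. The peak at 1618940 to 1619373 was much narrower, 434 bp, and scored 157.67, with 216.80 and 128.13 in the replicates. Around them were peaks at 1607149 to 1610320 (score 135.46) and 1625781 to 1629307 (129.91). The narrow peak scored above both of these flanking peaks in all 3 lists, with theirs at 166.63 and 158.52 in replicate 1 and at 86.77 and 92.11 in replicate 2.

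Other strong sites of the dense stretch included a 2446 bp peak at 2393315 to 2395760, with scores of 144.77 in the combined list, and 173.64 and 125.74 in replicates 1 and 2. A 1557 bp peak at 1899380 to 1900936 was a single peak in each list and scored 137.32, 168.96 and 106.84. Neighbouring peaks at 2124297 to 2127778 and at 2128598 to 2132041 scored 134.54 and 135.46 in the combined list. The peak at 2958898 to 2963535 (4638 bp, score 132.68) differed in rank between the replicates, with 2 peaks and rank 17 in replicate 1 and 6 peaks and rank 38 in replicate 2.

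Outside the dense stretch there were 2 of the 20. A 4340 bp peak at 69503 to 73842, in the leftmost 500 kb, scored 132.68 in the combined list, and 159.67 and 85.69 in replicates 1 and 2. A 4717 bp peak at 3796428 to 3801144 scored 126.22, 122.64 and 98.25, and straddled 2 windows of which combined peaks covered 9.05% and 10.6%. It was the only combined peak of 2 kb or more after 3500000 in the arm. Its rank in the arm was 38 in replicate 1 and 16 in replicate 2.

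Width and score were related but not the same. Over the 1350 combined peaks Spearman's rho between them was 0.75 (0.78 in replicate 1 and 0.76 in replicate 2), against 0.68 over the whole combined list, all given as descriptions. Of the 10 widest peaks, from 5605 to 10561 bp, 3 were also among the 20 highest scores. The widest, at 1512863 to 1523423, scored 152.17. A 9247 bp peak at 1065154 to 1074400 scored 113.45, and an 8324 bp peak at 346460 to 354783 scored 107.46. Replicate 2 held that last site as 1 peak of 8286 bp and broke up the other 9 of the 10 widest. Replicate 1 held it as 2 peaks and broke up 8 of the 10. A site counted as broken up when 2 or more replicate peaks overlapped it, however small. At 1526295 to 1533411, for example, replicate 2 had a peak of 6448 bp and one of 220 bp. The 6665 bp peak at 3018230 to 3024894 had the lowest score of the 10, 75.62, and ranked 175 in replicate 1 and 172 in replicate 2 by its best peak.

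At the outer end, the first combined peak of the chromosome lay at 9506 to 9700, was 195 bp wide and scored 8.61. Replicate 1 had a 192 bp peak there with a score of 11.32, and replicate 2 began with a 220 bp peak ending at 12916. At the inner limit the last peaks inside were a 571 bp peak at 4562548 (score 13.34), a 197 bp peak at 4568625 (16.77) and a 171 bp peak at 4578486 (10.68), the last without either replicate. The first peaks outside were a 207 bp peak at 4613699 (9.83), a 929 bp peak at 4649350 (14.85) and a 226 bp peak at 4650361 (8.22). Scores on either side of the limit, which is set by chromosome length alone, were of similar size. No genome or gene annotation of build WS220 was used here, so genes, repeats and sequence under these peaks are not given.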

How the data were processed

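The authors deposited 1 peak list per LIN-61 ChIP library and 1 combined list. Per the file headers, MACS called the peaks on genome build WormBase WS220. Its version, threshold and control, the aligner, and how the combined list was made were not given in the sources used here. Per the labels' protocols, ground worms were crosslinked with EGS for 20 minutes and with EGS plus formaldehyde for 10 minutes more. The deposited score is the authors' value per peak; it was used to rank and describe peaks within a list. The lists give no read counts, so depth is unknown, and peak lists of inputs were not used here.

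Coordinates count from 1. Each chromosome was taken to end at the rightmost peak base of the 3 lists. The 2 mitochondrial peaks of replicate 1 were set aside. Overlap meant at least 1 bp. Named regions followed a rule: the 20 highest-scoring peaks backed by both replicates, the 10 widest, the 5 richest and 5 poorest windows, the 5 longest tracts and empty stretches, and the peaks at either limit. The arm, the tests and the lists were chosen with earlier results of these data known; the stretch from 1000001 to 3500000, the width classes and the replicate peaks without a combined counterpart were chosen after the values were seen. Arms and centres (33.3% of a chromosome each) were compared over the replicate lists by exact permutation, unpaired and paired by library. On simulated data, overlap code was right for all 1350 peaks, each either copied whole into a second list or absent from it. Tract code recovered all 307 planted tracts. Peaks broken into several pieces were not simulated. Software was Python 3.11.15, numpy 2.4.6, pandas 2.3.3, scipy 1.17.1 and matplotlib 3.10.9.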

Additional observations from a re-analysis of the deposited data

How the results depend on the processing

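Of the 59 alternatives, 16 moved a value by less than its error and 42 by more. That error was the SD of the replicates or a 95% Wilson interval, which treats neighbouring peaks as independent. The window correlation between the replicates has neither, and the error used for it is not given here. The remaining 1 of the 59 alternatives turned a direction. With peaks within 1 kb merged, the density ratio of the left arm to the right arm of III was 0.97, against 1.19. It was 1.47 for peaks at or above the median score, 1.39 for covered length, 1.46 for combined peaks with both replicates and 1.31 to 1.41 in a single replicate. The ratio of left to centre, 3.14, was 4.90 for peaks at or above the median score, 2.12 for merged peaks, 4.63 for covered length, 4.66 for peaks with both replicates and 3.68 to 4.35 in a single replicate. Covered sequence was 13.6% to 19.5% in a single replicate and 26.8% for the outer 25% of the chromosome. Median width was 351 to 398 bp in a single replicate, 623 bp at or above the median score and 717 bp with both replicates, and median score 11.45 to 12.98, 28.73 and 33.33. The share in tracts of 5 or more peaks, 43.6%, was 21.3% with gaps of 500 bp, 63.1% with gaps of 2 kb, 26.2% at or above the median score, 17.6% with both replicates, 48.2% in the outer 25% and 41.4% to 44.2% in a single replicate. Fewer peaks or shorter gaps make smaller tracts by construction. The share with both replicates was 43.9% where 50% of the peak had to be covered, 60.7% within 200 bp and 84.1% at or above the median score; the share with neither was 17.4%, 10.7% and 0.475%. Replicate 1 peaks had a partner in 45.1% (50% of both peaks), 70.7% (within 200 bp), 72.4% (at or above the median score) and 71.8% (equal list sizes), and replicate 2 peaks in 50.1%, 93.2%, 94.3% and 88.5%. The window correlation was 0.99 with windows of 250 kb. The causes of the other shifts were not tested. With the replicate block, added after seeing the data, the mean ratio within libraries was 4.02 for left to centre and 1.36 for left to right. No pairing of ChIP with input was made, as peak lists of inputs were not used here. Depth is unknown, so whether sites of replicate 1 without a partner fall under the threshold in replicate 2 cannot be told from these lists.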

Other observations

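Some replicate peaks of the left arm of III had no counterpart in the combined list, a slightly smaller share than genome-wide. Those with a counterpart were 94.0% of replicate 1 peaks against 92.6% genome-wide, and 99.4% of replicate 2 peaks against 98.3%. In replicate 1, 76 of 1258 (6.04%) had no counterpart, and none of these 76 overlapped a replicate 2 peak. Most were small, with a median width of 181 bp and a median score of 4.03, against 428 bp and 14.30 for replicate 1 peaks with a counterpart. There were 2 wide ones, a 2917 bp peak at 2497165 to 2500081 with a score of 17.96 and a 2195 bp peak at 2077655 to 2079849 with a score of 15.45. That second site lies in the window where replicate 1 covered more sequence than the combined list. A group of 6 replicate 1 peaks, together 2307 bp, lay between 1017387 and 1020613 with scores of 3.65 to 5.85, where neither the combined list nor replicate 2 had any peak. Peaks of 750, 650 and 604 bp stood side by side from 1300195 to 1302932, in the window with the lowest cover in the combined list. In replicate 2, 7 of 1132 peaks (0.618%) had no combined counterpart, the widest 291 bp.

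Peaks far from others were few in the arm. Of the 1350 combined peaks, 18 (1.33%) lay 10 kb or more from any other, against 772 of 13662 (5.65%) in the whole combined list, where peaks are less dense. Those of the arm had a median width of 240 bp and a median score of 9.24.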
